A study of Homo sapiens with 8 samples.

Results

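The 2 arrays of the HEK293 line expressing GFP-TIA1 were set against the 2 arrays of the matched line expressing GFP alone, which makes 4 of the 8 arrays of the series. TIA1 is an RNA-binding protein that shuttles between nucleus and cytoplasm. In the nucleus it binds U-rich sequence next to weak 5′ splice sites and aids their recognition, and in the cytoplasm it binds U-rich and AU-rich elements of mRNAs, represses their translation or alters their stability, and gathers with them in stress granules. TIAR (gene TIAL1) is its close paralog, and HuR (gene ELAVL1) binds similar elements but is known mostly for stabilising the mRNAs it binds.

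All lines were made from HEK293, a line of human embryonic kidney cells that carries adenoviral DNA, with the Flp-In T-REx system, in which a recombinase places the gene of interest at the same genomic site of every line and tetracycline turns it on. The control line expresses GFP and the test line GFP-TIA1. The lines expressing GFP-TIAR and GFP-HuR are given only for comparison. Each was hybridised as 2 biological replicates. For replicate 2 of the test line the source name reads GFP-TIA2, while title and genotype read GFP-TIA1, and the title was followed. Neither the tetracycline dose nor the induction time is given in the labels, and nothing says whether a line is 1 clone, so that the protein expressed and the line that carries it cannot be told apart. Each gene is described by the processed signal of 1 probe, as the log2 signal minus the 75th percentile of its array, which is called its level below. A level of 0 is as bright as the 75th percentile, and a difference of 1 between levels is a 2-fold difference in signal.

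Arrays are named by line and replicate number. A probe entered the tests where it was well above background on both TIA1 arrays or on GFP 2; 28089 of 50599 did, and these stand for 20783 genes, 15192 of them with a gene name. GFP 1 stood apart from the other arrays. It read 86.1% of probes as well above background, and the others 53.3% to 58.6%, and its mean local background was 83.17 against 35.72 to 41.48. The 2 GFP arrays lay at least 2-fold apart for 18.4% of the tested probes, and the 2 TIA1 arrays for 2.06%. With the genes ordered by level and cut into 10 groups of equal size, GFP 1 exceeded GFP 2 by a median of 1.19 in the dimmest group and lay lower in the brightest, with a median difference of -0.37. Values are therefore given for each GFP array, and a gene is said to have held higher or lower where all 4 differences between a TIA1 and a GFP array were at least 2-fold in that direction and the probe was well above background on both arrays of the brighter line; this is a description and not a test. Of 16 genes typical of HEK293, 12 to 16 were above background on each of the 4 arrays, PAX8, PROM1 and STMN2 being the ones missing from 1 or both TIA1 arrays. Of 29 markers of other cell types, 25 were above background on GFP 1, 14 on GFP 2, and 17 and 16 on the TIA1 arrays, and the summed linear level of these markers was 11, 2.7, 4.35 and 4.33. The leukocyte marker PTPRC (levels of 1.13 on GFP 1 and -4.12 on GFP 2) and the collagen COL1A1 (1.37 and -2.76) lay among those raised on GFP 1, while KRT5, COL3A1, PDGFRB and PECAM1 were at background on all 4. The part of these markers in the results was not tested.

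**Figure D1:**
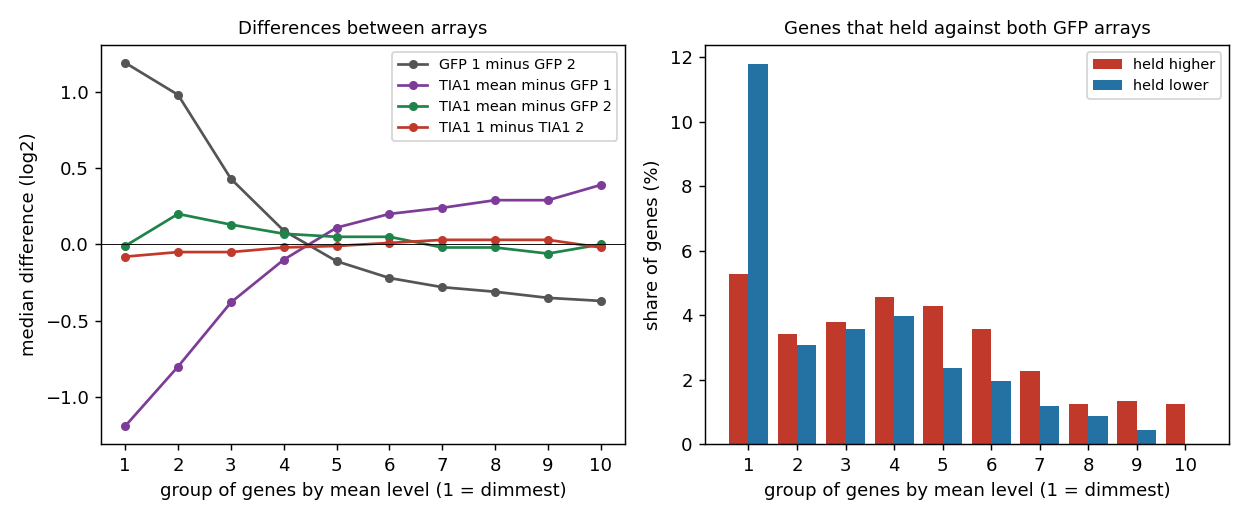
Left, median log2 difference between pairs of arrays in each of 10 groups of genes of equal size, ordered by mean level over all 8 arrays. Right, the share of genes in each group, in %, that held higher or lower in the TIA1 line against both GFP arrays. GFP 1 lies above GFP 2 among dim genes and below it among bright ones, whereas the medians between the 2 TIA1 arrays stay within 0.08 of 0, and 11.8% of the dimmest group held lower.

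The probes for TIA1 itself and for one gene that stood highest, one that stood lowest and some others described below are shown by their first 30 of 60 bases, 5′ to 3′, all in lower case, with hg19 positions as the array files give them, so that a reader can look up each probe. The exon or transcript form that each probe reads was not worked out. The first TIA1 probe lies on the minus strand at chr2:70436698-70436757, the second at chr2:70439756-70439815, the GSTP1 probe on the plus strand at chr11:67354050-67354109, the BMP2 probe at chr20:6760810-6760869 on the plus strand, the HNMT probe at chr2:138771478-138771537 on the plus strand, the CEBPE probe at chr14:23586547-23586606 on the minus strand and the BBC3 probe at chr19:47724174-47724233 on the minus strand.
TIA1, first probe: ggattttctctgttgttaaatcacaaaaat
TIA1, second probe: gctacagggagtgtagtaaagccgttgttt
GSTP1: ggttggggggactctgagcgggaggcagag
BMP2: gcttttctttccaaggttgtgtgtttgaac
HNMT: ccttttgtccaccatggatatatctgactg
CEBPE: atagaccatggataaatggcaaccggggtg
BBC3: agtctgggagtggggagggatggcccagcc

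None of the mRNAs of the expressed proteins held higher in the TIA1 line. The first TIA1 probe read -0.04 and 0.20 on the GFP arrays and -0.92 and -0.97 on the TIA1 arrays. The difference, TIA1 minus GFP, was -1.03 ± 0.21 (SE; limma, adjusted p = 0.128). The second TIA1 probe read -0.31 and -0.72 against -1.24 and -0.92, a difference of -0.56 ± 0.26 (adjusted p = 0.312). On both probes the 2 TIA1 arrays lay below the 2 GFP arrays. It is not known here where these probes lie relative to the inserted sequence, so they do not check the label of the line; 1 of the 2 TIAL1 probes read 4.89 and 5.01 in the TIAR line against 2.06 and 2.49 in the GFP line. That same TIAL1 probe read 1.65 and 1.76 in the TIA1 line, a difference from GFP of -0.57 ± 0.25, and the other TIAL1 probe gave -0.59 ± 0.25, a direction that turned with the scaling (0.62 with quantile normalization, 0.12 in the deposited values). ELAVL1 read 1.09 and 0.94 against -0.26 and 0.48, a difference of -0.91 ± 0.32 (adjusted p = 0.231). None of these 3 genes held lower, although the first TIA1 probe did so with cyclic loess.

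Across all genes, limma on the 4 arrays called 0 genes higher (0%) and 0 genes lower (0%) at a 2-fold difference and an adjusted p under 0.05. At an unadjusted p under 0.05 it listed 4355 of the 20783 genes, and the smallest adjusted p was 0.0527, that of CEBPE. The methods' t-test, paired by replicate number, gave 319 genes higher and 223 lower at an unadjusted p under 0.05 and 0 in either direction after Benjamini-Hochberg adjustment, and a rank product gave 632 and 510. The limma fits that left out 1 array had a lone array in 1 line, which was assumed to vary like the other line. Their counts are therefore not set beside these. When all 8 arrays shared 1 estimate of the spread, 1033 genes were called higher and 835 lower.

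Without a test, 645 genes (3.1%) held higher against both GFP arrays and 608 (2.93%) held lower. With no minimum difference, the mean of the TIA1 arrays lay above both GFP arrays for 7828 genes (37.7%) and below both for 6557 (31.5%). These shares over all genes, which are not matched for level, are the ones to set beside the counts of each list below. Against GFP 1 alone, 1738 genes were at least 2-fold higher and 3369 at least 2-fold lower, and against GFP 2 alone 1766 and 1236. Among the genes that held higher, 492 were above background on all 4 arrays, 69 on 1 GFP array and 84 on neither GFP array. Among those that held lower, 324 were above background on all 4 arrays, 47 on 1 TIA1 array and 237 on neither TIA1 array, so the lower set held more dim genes. The split moved with the scaling, from 645 higher and 608 lower to 803 and 345 with quantile normalization, 829 and 525 with cyclic loess, 415 and 219 with normexp background correction, 414 and 197 with normexp and quantile normalization, and 476 and 208 in the values the authors deposited.

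**Figure D2:**
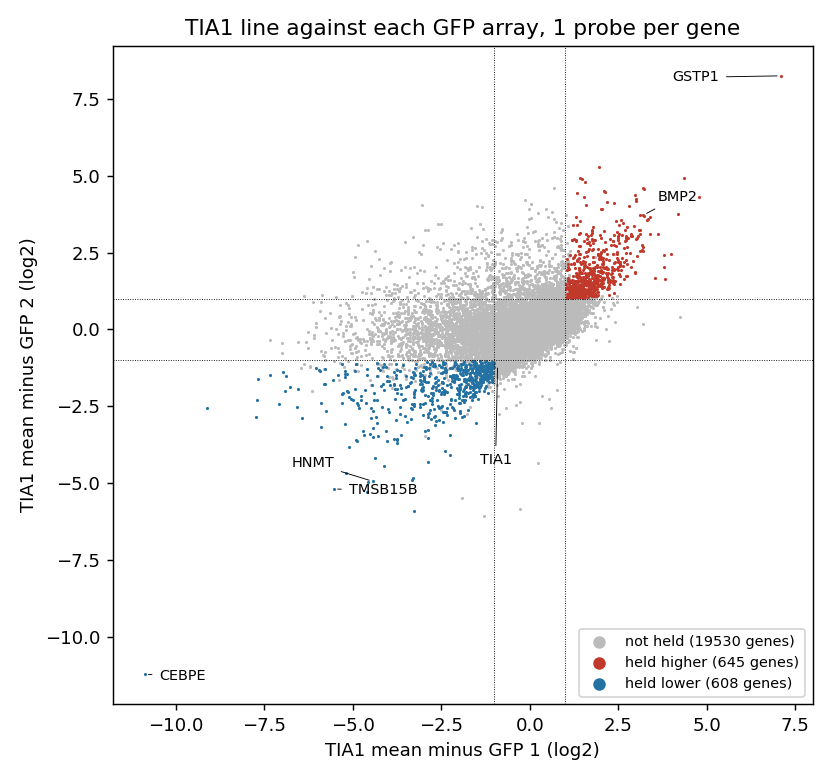
Mean level of the 2 TIA1 arrays minus GFP 1 (horizontal, log2) and minus GFP 2 (vertical, log2) for each of 20783 genes, with dotted lines at 2-fold. Red points are the 645 genes that held higher and blue points the 608 that held lower; GSTP1 and CEBPE lie farthest out in the 2 directions.

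The gene that stood highest in the TIA1 line was GSTP1, glutathione S-transferase pi, which conjugates glutathione to electrophiles. It read -3.07 on GFP 1 and -4.24 on GFP 2 against 3.98 and 4.05 on the TIA1 arrays, so it was 136-fold above GFP 1 and 304-fold above GFP 2 (limma, difference 7.67 ± 0.45, adjusted p = 0.0969). GSTP1 was as bright in the HuR line (4.46 and 4.34) and in the TIAR line (3.69 and 3.85): it was the GFP line that read low. In RNA from a whole culture, fewer cells with a transcript and less of it per cell cannot be told apart. Over the alternatives run, the GSTP1 difference lay between 6.78 and 8.25 and its limma adjusted p between 0.0021 (all 8 arrays in 1 fit) and 0.825 (without TIA1 1).

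BMP2, a secreted ligand of the bone morphogenetic protein family, read -4.06 and -4.57 in the GFP line and -0.92 and -0.78 in the TIA1 line. That was 9.27-fold above GFP 1 and 13.2-fold above GFP 2 (difference 3.47 ± 0.26, limma adjusted p = 0.0969). In the other lines BMP2 read -5.00 and -4.93 (HuR) and -3.42 and -3.26 (TIAR). Its TIA1 arrays were thus the highest of the 8. The levels of LTC4S, leukotriene C4 synthase, were -4.16 and -4.41 in the GFP line against -0.87 and -0.85, or 9.83-fold and 11.7-fold, with -3.47 and -3.59 in the HuR line and -1.78 and -1.53 in the TIAR line. For RNF112, a RING finger protein of neural tissue, they were -3.59 and -3.57 against -0.50 and -0.45, or 8.69-fold and 8.57-fold, with -3.08 and -3.06 in the HuR line and -0.97 and -0.98 in the TIAR line. In both genes the TIA1 arrays lay above all others and the GFP arrays below all others.

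DHDH, a dihydrodiol dehydrogenase, read -1.47 and -1.62 in the GFP line and 1.67 and 1.55 in the TIA1 line, 8.43-fold and 9.39-fold apart. The antisense transcript C1orf213, now ZNF436-AS1, read -1.02 and -0.99 against 2.08 and 1.99, 8.33-fold and 8.15-fold apart, and its other probe also held higher with a difference of 3.96. EPHB6, an ephrin receptor without kinase activity, read -5.25 and -5.35 against -2.05 and -2.21, and ZSCAN10, a zinc finger factor of pluripotent cells, -5.06 and -6.30 against -2.06 and -2.05; each was above background on only 1 GFP array. The GFP and TIA1 levels of these 4 genes did not overlap, which the rule for holding higher already requires. DHDH and EPHB6 read much the same in the TIAR line (1.23 and 1.52; -2.07 and -2.20) as in the TIA1 line, while ZSCAN10 and C1orf213 read lower there (-3.42 and -3.23; 0.67 and 0.77).

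The other 4 of the 12 genes with the largest such differences were above background on both TIA1 arrays and on neither GFP array, so that only a lower bound on the ratio of the line means can be given, with each GFP array at its dimmest signal above background or at the probe's own signal where that was higher. PTPRO, a receptor tyrosine phosphatase of podocytes and neurons, read -2.86 and -3.13 in the TIA1 line, at least 11.3-fold above GFP (9.15-fold as measured against GFP 1 alone). TMEM190, a small membrane protein, was at least 9.59-fold higher (8.7-fold as measured against GFP 1 alone). SSPO (SCO-spondin, named as the pseudogene SSPOP by RefSeq) was at least 8.94-fold higher and GPR158, an orphan G protein-coupled receptor, at least 5.34-fold. Of these 12 genes, 11 held higher in each of the 5 other scalings; GPR158 held in 2 of them. The bounds belong to the scaling used here: the PTPRO difference was 3.90 in it and 1.43 after normexp.

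The largest difference of all was the loss of CEBPE signal. CEBPE encodes a C/EBP transcription factor of late granulocyte differentiation. It read 5.73 and 6.07 in the GFP line, 6.59 and 6.48 in the HuR line and 5.86 and 6.13 in the TIAR line, and -4.90 and -5.39 in the TIA1 line, where it was above background on 1 of 2 arrays. The difference was -11.05 ± 0.28 (limma, adjusted p = 0.0527), or -9.33 after normexp, and no exact fold is given for a signal at background on 1 array. The TIA1 line alone read low. Over the alternatives run, the CEBPE difference lay between -11.3 and -9.26 and its limma adjusted p between 0.000132 (all 8 arrays in 1 fit) and 0.669 (without the filter on dim probes).

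TMSB15B, a thymosin that binds actin monomers, read 0.15 and -0.19 in the GFP line and -4.99 and -5.77 in the TIA1 line, where it was above background on 1 of 2 arrays. The difference was -5.36, or -3.61 after normexp. It was also low in the HuR line (-4.33 and -4.35) and not in the TIAR line, where 1 array read 0.21 and the other had an outlier flag. Both HNMT probes held lower: for HNMT, histamine N-methyltransferase, the brighter probe read -2.88 and -2.38 against -7.51 and -7.13, at least 23.1-fold lower, and -2.72, -2.67, -2.15 and -2.18 on the HuR and TIAR arrays. The probes of RAB17, a small GTPase of epithelial vesicle traffic, did the same, the brighter with -1.80 and -2.31 against -7.47 and -6.49. The ratio of its line means was 30.3-fold, as measured at background in the TIA1 line. As measured against 1 GFP array alone, HNMT was 21.7-fold lower (GFP 1) and RAB17 25.4-fold (GFP 2). As with CEBPE, the TIA1 line read lowest of the 4 lines for HNMT and RAB17. HNMT held in 3 of the 5 other scalings and RAB17 in 4, and their differences of -4.69 and -4.92 became -1.81 and -1.92 after normexp.

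The remaining 8 of the 12 lowest genes were above background on both GFP arrays and on neither TIA1 array, and are given by the same bound on the ratio of the line means. TAT, tyrosine aminotransferase, was at least 15.8-fold lower, PTPLAD2 (now HACD4, a dehydratase of very long fatty acid synthesis) at least 14.2-fold, FAM101A (now RFLNA, an actin-bundling refilin) at least 13.2-fold and DSCR6 (now RIPPLY3, a transcriptional corepressor) at least 12.5-fold. The cytokine gene IL26 was at least 11.7-fold lower, the pluripotency factor NANOG at least 10.7-fold, ODZ1 (now TENM1, a teneurin) at least 10.1-fold and the lipid droplet coat protein PLIN2 at least 8.76-fold. As measured against the dimmer GFP array alone, TAT was 9.79-fold lower, FAM101A 10.9-fold, DSCR6 11.1-fold and NANOG 9.33-fold. ODZ1 read -3.74 and -3.94 in the GFP line but 0.67 and 0.78 in the TIAR line. Each of these 8 genes depended on the scaling: IL26 held in 0 of the 5 other scalings, ODZ1 in 1, FAM101A, PLIN2, DSCR6, TAT and NANOG in 2 and PTPLAD2 in 3. These bounds, too, belong to the scaling used here. The IL26 difference was -3.71 in it, -1.21 after normexp and -0.72 in the deposited values. For NANOG these were -3.82, -1.15 and -0.68, for PLIN2 -3.71, -0.96 and -0.64, and for TAT -4.06, -1.71 and -1.31. In the dimmest of the 10 groups of genes 11.8% held lower and 5.29% higher, against 0% and 1.25% in the brightest.

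**Figure D3:**
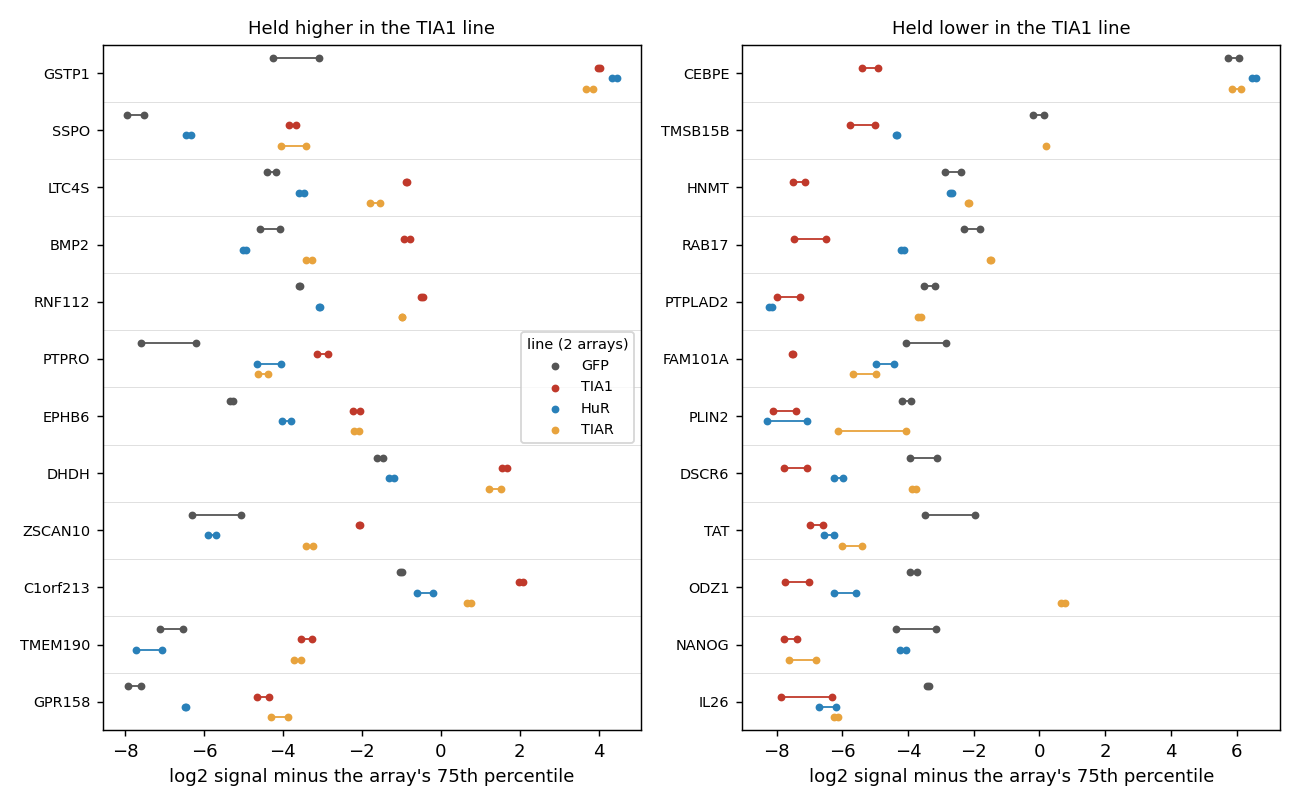
Level (log2 signal minus the 75th percentile of the array) on every array for the 12 named genes that held highest (left) and the 12 that held lowest (right) in the TIA1 line, ordered by the smallest of the 4 differences. Each point is 1 array and each line joins the 2 replicates of a line; GSTP1 is low in the GFP line only and CEBPE in the TIA1 line only, and points near -7 and below lie at background.

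The study followed proliferation and cell death in these lines, so genes of those processes were examined next. Of 27 death receptors and caspases, the receptors and proteases that start and carry out apoptosis, 1 (3.7%) held higher and 0 lower. The shares of all genes were 3.1% and 2.93%. Above both GFP arrays lay 17 (63%) and below both 4 (14.8%), against 37.7% and 31.5% of all genes. Over all genes the median difference was 0.02 (0.07 against GFP 1 and 0.03 against GFP 2), and for the list it was 0.53 (0.69 and 0.28). This median was between 0.35 and 0.45 in the other scalings, which themselves moved the median of all genes to between 0.01 and 0.20. TNFRSF10D, a decoy receptor for TRAIL, was the member that held and read 1.60 and 1.70 in the GFP line and 3.09 and 3.01 in the TIA1 line (difference 1.40 ± 0.20, limma adjusted p = 0.104). PIDD, a death-domain protein that activates caspase-2, read 2.73 and 3.20 against 4.48 and 4.72 (1.63 ± 0.26, adjusted p = 0.110). BBC3, which encodes the BH3-only protein PUMA, read 2.05 and 2.17 against 3.33 and 3.48 (1.29 ± 0.20, adjusted p = 0.108). For all 3 the TIA1 arrays lay above the GFP arrays, as in any gene that held higher. The TIAR line read near the TIA1 line (3.33 and 3.37, 4.05 and 4.23, and 3.10 and 3.20). The HuR line read near the GFP line. IGFBP3, which binds insulin-like growth factors, read -5.17 and -7.35 against -3.84 and -4.07 and was above background on only 1 GFP array. BBC3 held in 3 of the 5 other scalings, IGFBP3 in 4, and TNFRSF10D and PIDD in all 5.

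The BCL2 family, which sets the permeability of the outer mitochondrial membrane, had BBC3 alone among 23 genes that held. BAX, a pore-forming member, gave 0.50 ± 0.27 on its brighter probe and -0.84 on its dimmer one, so its probes disagreed. BCL2 (-0.32 ± 0.21) and BCL2L1 (-0.24 ± 0.25) lay within 2 SE of no difference. CDKN1A, which encodes the p21 inhibitor of cyclin-dependent kinases, read -2.90 and -2.91 against -2.06 and -2.06, a difference of 0.85 ± 0.19 (adjusted p = 0.141) that did not reach 2-fold. The CDKN1A difference was 1.71 with quantile normalization and 0.42 after normexp, so whether it reached 2-fold depended on the scaling, and it held in 0 of the 5 others.

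A further list held genes followed by other assays in these lines. Of its 22 members BBC3 alone held. EIF2S1, the alpha subunit of the initiation factor eIF2, read -0.43 and -0.17 against 0.75 and 1.03 (1.19 ± 0.23, limma adjusted p = 0.125), and GADD45B, a stress-induced growth arrest gene, 2.19 and 2.53 against 3.44 and 3.57 (1.14 ± 0.23, adjusted p = 0.127). Both fell short of holding, since their smallest differences were 0.92 and 0.91; GADD45B held in 2 of the 5 other scalings and EIF2S1 in 0. MYC read 2.72 and 3.06 against 2.35 and 2.28 (-0.58 ± 0.22), and HMGN5, a nucleosome-binding protein, 0.56 and 0.27 against -0.21 and -0.34 (-0.69 ± 0.22, adjusted p = 0.205). GAPDH (0.13 ± 0.22), CCND1 (-0.10 ± 0.20), PARP1 (-0.09 ± 0.22) and EIF4E (-0.18 ± 0.34) differed by no more than their error. NUP98, a nucleoporin, gave -0.58 ± 0.23 on its brighter probe, while its other probe held higher with 1.74. MKI67, the proliferation marker, gave 0.37 ± 0.27 on its brightest probe, and of its 3 probes 1 held higher with 1.40.

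Most cell cycle genes lay above both GFP arrays, by an amount that moved with the scaling. None of 43 S phase genes held, but 32 (74.4%) lay above both GFP arrays and 4 (9.3%) below both, against 37.7% and 31.5% of all genes, with a median of 0.47 (0.67 against GFP 1, 0.27 against GFP 2). Of 54 G2/M genes, 3 (5.56%) held higher and 0 lower, against 3.1% and 2.93% of all genes, 41 (75.9%) lay above both GFP arrays and 0 below both, and the median was 0.42 (0.62 and 0.30). In the other scalings 35 to 39 of the G2/M genes lay above both and 2 to 6 below both. Relative to the median of all genes, the G2/M median was 0.40 here and 0.09 to 0.38 in the other scalings, and the S phase median 0.45 and 0.19 to 0.47, both lowest with quantile normalization. Over all genes, the median against GFP 1 rose with level, from -1.19 in the dimmest of the 10 groups to 0.39 in the brightest. Against GFP 2 it was -0.01 in the dimmest and 0 in the brightest. The groups into which the genes of these lists fall were not counted. The values against GFP 2 are therefore the ones to set beside the rest. SMC4, a condensin subunit, read 2.14 and 2.25 in the GFP line against 3.81 and 3.64 (1.53 ± 0.20, limma adjusted p = 0.0995). HMGB2, a chromatin protein of dividing cells, read 3.99 and 4.04 against 5.23 and 5.24 (1.22 ± 0.19), and CENPA, the centromeric histone H3, -0.23 and -0.30 against 1.11 and 0.82 (1.23 ± 0.22). In all 3 genes both TIA1 arrays lay above both GFP arrays, as in any gene that held higher. SMC4 held in all 5 other scalings, CENPA in 4 and HMGB2 in 3. Against the trend, POLA1, the catalytic subunit of DNA polymerase alpha and chosen here after its value was seen, read 2.50 and 3.05 against 1.89 and 1.66 (-1.0 ± 0.28).

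Among 32 G1 cyclins, kinases, inhibitors and E2F factors, 2 (6.25%) held higher and 1 (3.12%) lower, against 3.1% and 2.93% of all genes. E2F2, an activator of S phase genes, read 2.42 and 2.80 against 4.14 and 4.27 (1.60 ± 0.24), and CDKN2D, which encodes the p19 inhibitor of CDK4 and CDK6, 1.21 and 1.58 against 2.66 and 2.73 (1.30 ± 0.23). E2F5, a repressor E2F, read 0.01 and 0.23 against -1.73 and -1.84 (-1.91 ± 0.21, limma adjusted p = 0.0969). In these 3 genes the TIAR arrays read close to the TIA1 arrays, and the HuR arrays lay nearer to the GFP arrays. E2F2 and E2F5 held in all 5 other scalings and CDKN2D in 2.

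Immediate early genes are switched on soon after a stimulus, and many of their mRNAs carry AU-rich elements and are short-lived. Of 38 immediate early and cytokine genes, 6 (15.8%) held higher and 1 (2.63%), CXCL1, lower, against 3.1% and 2.93% of all genes, while 20 (52.6%) lay above both GFP arrays and 9 (23.7%) below both (median 0.24, 0.26 against GFP 1 and 0.33 against GFP 2; 0.18 to 0.77 over all scalings). CCL2, a monocyte chemokine, read -4.78 and -5.02 in the GFP line against -1.98 and -2.14 (2.84 ± 0.21, limma adjusted p = 0.0969). EGR1, a zinc finger factor induced by growth factors, read -0.54 and -0.19 against 1.29 and 1.34 (1.68 ± 0.23), and JUND, an AP-1 subunit, -0.86 and -0.39 against 1.01 and 1.32 (1.79 ± 0.27). Their levels in the 2 lines did not overlap, as in any gene that held. DUSP1, a phosphatase of MAP kinases, read -0.07 and 0.23 against 1.83 and 1.58 (1.63 ± 0.23), and ZFP36, which encodes tristetraprolin and marks AU-rich mRNAs for decay, 1.37 and 1.39 against 2.61 and 2.49 (1.17 ± 0.19); FOSB was the remaining member. CCL2, EGR1, JUND and DUSP1 held in all 5 other scalings and ZFP36 in 0. EGR1 read higher still in the HuR line (1.97 and 2.13) and much the same in the TIAR line (1.42 and 1.38). For EGR1 it was thus the GFP line that read low. In the HuR line DUSP1 (1.11 and 1.07) and JUND (-0.03 and 0.13) also read above both GFP arrays. CCL2 (-6.52 and -6.79) and ZFP36 (1.38 and 1.20) did not. ZFP36 was also the only one of 30 RNA-binding proteins of AU-rich elements that held, and of 30 stress granule proteins 0 held in either direction (median 0.23, 0.02 against GFP 2, and 0.06 to 0.19 in the other scalings).

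Of 43 genes of interferon response and innate sensing, 3 (6.98%) held higher and 0 lower, against 3.1% and 2.93% of all genes. The list median was 0.16, and 0 against GFP 2. IFITM1, which blocks viral entry at membranes, read 0.29 and 0.55 against 2.12 and 1.94 (1.60 ± 0.22), above the HuR line (-0.27 and -0.25) and the TIAR line (-0.09 and 0.49). IFI27 read -3.12 and -3.15 against -1.22 and -1.42 (1.82 ± 0.20). IFI44L was above background on both TIA1 arrays and neither GFP array. The ratio of its line means was at least 6.24-fold, and 5.37-fold as measured against GFP 1 alone (difference 2.97, or 0.96 after normexp). IFI44L read -4.27 and -3.61 in the TIA1 line and higher, -2.71 and -2.91, in the HuR line. IFITM1 held in all 5 other scalings, IFI27 in 3 and IFI44L in 2.

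The ATF4 response, which turns on amino acid metabolism under stress, and sterol synthesis were examined as metabolic lists. PCK2, the mitochondrial phosphoenolpyruvate carboxykinase and an ATF4 target, read -0.03 and -0.13 in the GFP line and -2.66 and -2.58 in the TIA1 line (-2.54 ± 0.19, limma adjusted p = 0.0969), and its other probe gave -3.92. The GFP and TIA1 levels of PCK2 lay far apart, with -0.27 and -0.26 in the HuR line and -1.15 and -1.14 in the TIAR line. INHBE, an activin subunit of the liver, was the second of 55 genes of the ATF4 response that held lower (3.64%, against 2.93% of all genes). It was at least 4.74-fold lower on the line means and 3.72-fold as measured against GFP 2 alone (difference -2.48, or -0.71 after normexp). It held in 0 of the other scalings. The list as a whole was even, with 20 genes (36.4%) above both GFP arrays and 20 (36.4%) below (median 0.04). Of all genes 37.7% lay above both and 31.5% below. Of 28 genes of sterol synthesis, 0 held, yet 21 (75%) lay below both GFP arrays and 2 (7.14%) above, against 31.5% and 37.7% of all genes. The list median was -0.49 (-0.31 against GFP 1, -0.65 against GFP 2) and stayed between -0.65 and -0.41 in the other scalings. As examples chosen after their values were seen, MVD, which makes isopentenyl diphosphate, read -0.03 and -1.16 against -2.13 and -1.98 (-1.46 ± 0.44), and MVK, mevalonate kinase, 2.80 and 3.25 against 2.14 and 2.22 (-0.85 ± 0.25).

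Of the translation machinery, 78 (90.7%) of 86 cytosolic ribosomal protein genes lay above both GFP arrays and 2 (2.33%) below. The shares of all genes were 37.7% and 31.5%. The list had a median of 0.45 (0.64 against GFP 1, 0.23 against GFP 2). This depended on the scaling: 67 lay above and 3 below after normexp (median 0.45) and 67 and 6 with cyclic loess (0.21), but 33 and 33 with quantile normalization (0.04), 38 and 35 with normexp and quantile normalization (0.05) and 40 and 31 in the deposited values (0.08). The genes that held were the tissue-restricted paralogs RPL3L, higher (-4.18 and -5.12 against -2.65 and -2.55), and RPL39L, lower (0.62 and 1.10 against -0.94 and -0.93); both held in all 5 other scalings. Ribosome biogenesis factors leaned lower. Of 48, 24 (50%) lay below both GFP arrays and 11 (22.9%) above, against 31.5% and 37.7% of all genes, and 0 held. Their median was -0.20 (-0.02 against GFP 1 and -0.39 against GFP 2), and -0.37 to -0.22 in the other scalings. Among 46 initiation factors and eIF2 kinases EIF3L alone held, with 3.64 and 3.77 against 5.06 and 5.03 (1.34 ± 0.20). Among 84 splicing factors PRPF40B alone held, lower, with 0.73 and -1.12 against -2.36 and -2.71 (-2.34 ± 0.68), its GFP arrays being far apart. Several other lists had 0 genes that held. Mitochondrial ribosomal proteins (76 genes) had a median of -0.09 (0.15 against GFP 1 and -0.29 against GFP 2), and -0.26 to -0.12 in the other scalings. For respiratory chain subunits (81) it was 0.29 (0.48 and 0.06), and 0.03 to 0.26. Histones (62) had a median of 0.14 (0.38 and -0.04), HOX genes (34) 0.40 (0.57 and 0.40) and snoRNA host genes (16) 0.37 (0.53 and 0.18). Shares above and below both GFP arrays were 37.7% and 31.5% of all genes. They were 19.7% and 38.2% of the mitochondrial ribosomal proteins, 59.3% and 3.7% of the respiratory chain subunits and 43.5% and 19.4% of the histones. HOX genes had 70.6% and 11.8%, and snoRNA host genes 75% and 0%. In the other scalings 33 to 48 respiratory chain subunits, 22 to 26 HOX genes and 9 to 12 snoRNA host genes lay above both. Below both lay 6 to 28 respiratory chain subunits. The median of all genes against GFP 1 rose from -1.19 in the dimmest of the 10 groups to 0.39 in the brightest. The shares over all genes were not matched for level, and the part of level in the shares of these lists was not tested. Of 41 autophagy genes ATG10, the E2-like enzyme of ATG12 conjugation, alone held; it read -2.15 and -1.99 against -3.50 and -3.42 (-1.39 ± 0.20), and it held in 0 of the other scalings.

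**Figure D4:**
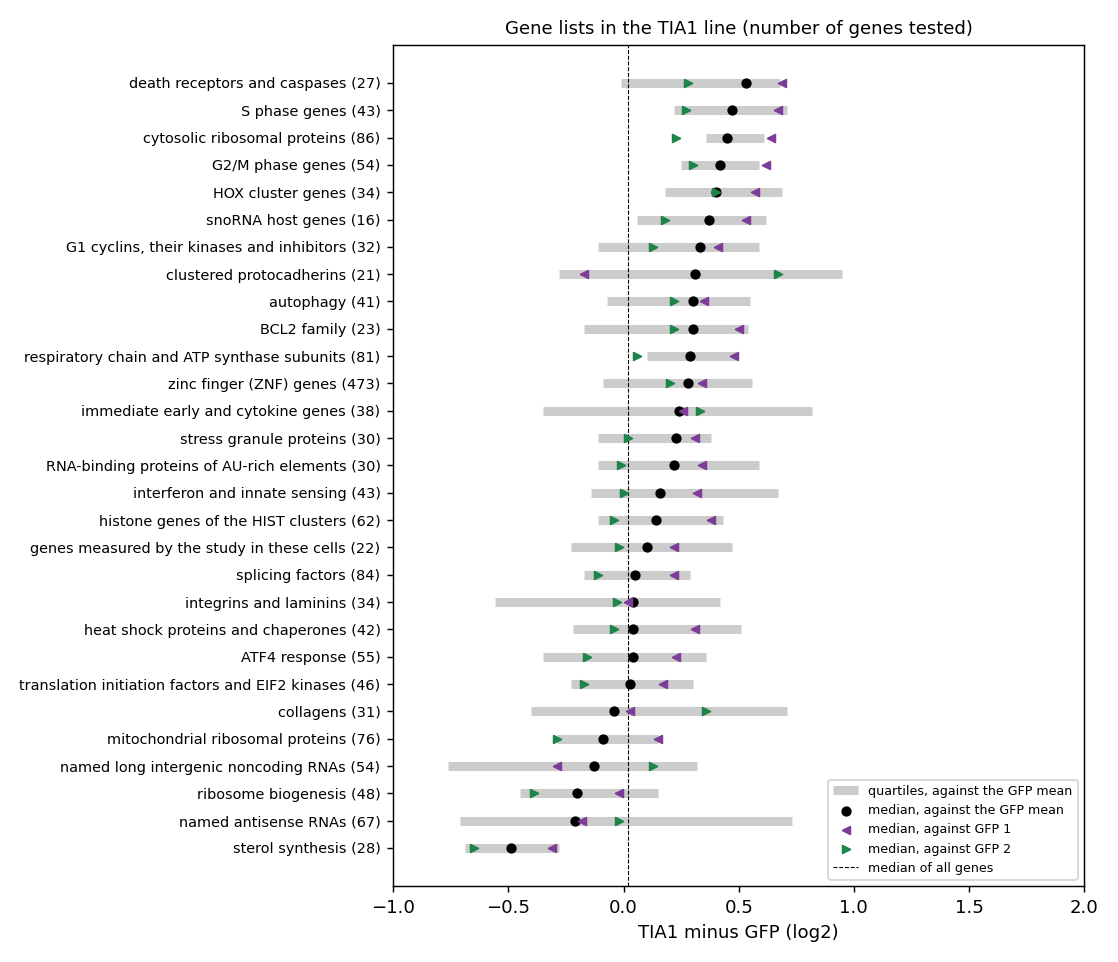
Median TIA1 minus GFP difference (log2) of the gene lists shown against the mean of the GFP arrays (black points, with the quartiles as grey bars) and against GFP 1 and GFP 2 apart (triangles), with the number of genes tested in brackets. The dashed line is the median of all genes, 0.02; sterol synthesis lies lowest at -0.49 and death receptors and caspases highest at 0.53.

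Among 42 heat shock proteins and chaperones 3 (7.14%) held higher and 0 lower, against 3.1% and 2.93% of all genes (median 0.04). They were HSPB1, the abundant small heat shock protein HSP27 (3.40 and 3.79 against 5.21 and 5.06, 1.54 ± 0.24), HSPB2 and DNAJB4. DNAJB4 gave 1.46 ± 0.26. The ratio of the HSPB2 line means was 7.25-fold, as measured at background in the GFP line, and 6.67-fold against GFP 1 alone. Of the 3 probes of HSPB1, 2 held higher, and HSPB1 held in all 5 other scalings, HSPB2 in 2 and DNAJB4 in 1. Among 31 collagens 4 (12.9%) held higher and 1 (3.23%) lower, against 3.1% and 2.93% of all genes. In the list 12 (38.7%) lay above both GFP arrays and 9 (29%) below, against 37.7% and 31.5% of all genes (median -0.04). COL5A2, a chain of the fibrillar collagen type V, read -3.21 and -3.06 against -1.30 and -1.43 (1.77 ± 0.20, limma adjusted p = 0.0969). COL24A1 gave 1.88 ± 0.30 and COL12A1 1.64 ± 0.25, though the dimmer COL12A1 probe gave -0.45; COL9A2 held lower with -1.50 ± 0.26. COL5A2, COL24A1 and COL12A1 held in all 5 other scalings and COL9A2 in 1. COL12A1 read -1.26 and -1.71 in the GFP line, 0.15 and 0.15 in the TIA1 line and 0.13 and 0.24 in the HuR line. COL5A2, by contrast, read -4.42 and -4.11 in the HuR line, below the GFP line. Of 34 genes in the list of integrins and laminins 2 (5.88%) held in each direction, against 3.1% and 2.93% of all genes. The integrin chains ITGB8 (2.20 ± 0.53, above background on 1 GFP array) and ITGA8 (1.49 ± 0.25) held higher. The laminin chain LAMC3 (-1.48 ± 0.22) and the integrin-binding protein ITGB1BP2 (-2.57 ± 0.61) held lower. ITGA8 and ITGB1BP2 held in all 5 other scalings, ITGB8 in 4 and LAMC3 in 1. In the HuR line ITGB8 read -3.02 and -2.89, near the TIA1 line (-2.99 and -2.57). LAMC3 did so too (-1.97 and -2.05 against -2.19 and -2.07). ITGA8 read -1.13 and -1.22 there and ITGB1BP2 -1.07 and -1.21, away from their TIA1 levels (0.80 and 0.96, -3.60 and -3.56).

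Of 21 clustered protocadherins, neuronal adhesion proteins, 4 (19%) held higher and 1 (4.76%) lower, against 3.1% and 2.93% of all genes. In the other scalings 1 to 5 held higher and 0 lower. PCDHGA12 read -2.82 and -2.74 against -1.09 and -1.20 (1.64 ± 0.20) and held in all 5 other scalings; PCDHGB6 and PCDHB15 were above background on neither GFP array, and PCDHB2 held lower (-1.26 ± 0.19) but in 0 of the other scalings. Of 473 zinc finger (ZNF) genes, 17 (3.59%) held higher and 4 (0.846%) lower, against 3.1% and 2.93% of all genes, and 273 (57.7%) lay above both GFP arrays and 88 (18.6%) below, against 37.7% and 31.5% (median 0.28, 0.34 against GFP 1 and 0.20 against GFP 2). The brightest of those named, ZNF98, read -0.15 and -0.13 against 1.87 and 1.94 (2.05 ± 0.19). Of 67 named antisense RNAs 5 (7.46%) held higher and 7 (10.4%) lower, and of 54 named long intergenic noncoding RNAs 5 (9.26%) in each direction, against 3.1% and 2.93% of all genes. In the other scalings 3 to 5 and 4 to 5 held higher, but 1 to 6 and 1 to 3 lower. UBAC2-AS1 read -1.04 and -0.89 against -3.30 and -3.30 (-2.33 ± 0.20), MFI2-AS1 -0.57 and -0.96 against 1.02 and 1.43 (1.99 ± 0.27), and LINC00460 -1.57 and -1.50 against -3.25 and -3.89 (-2.04 ± 0.29). The 2 lines did not overlap in any of these 3 transcripts, as in any gene that held. LINC00460 held in 2 of the 5 other scalings and the others in all 5.

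**Figure D5:**
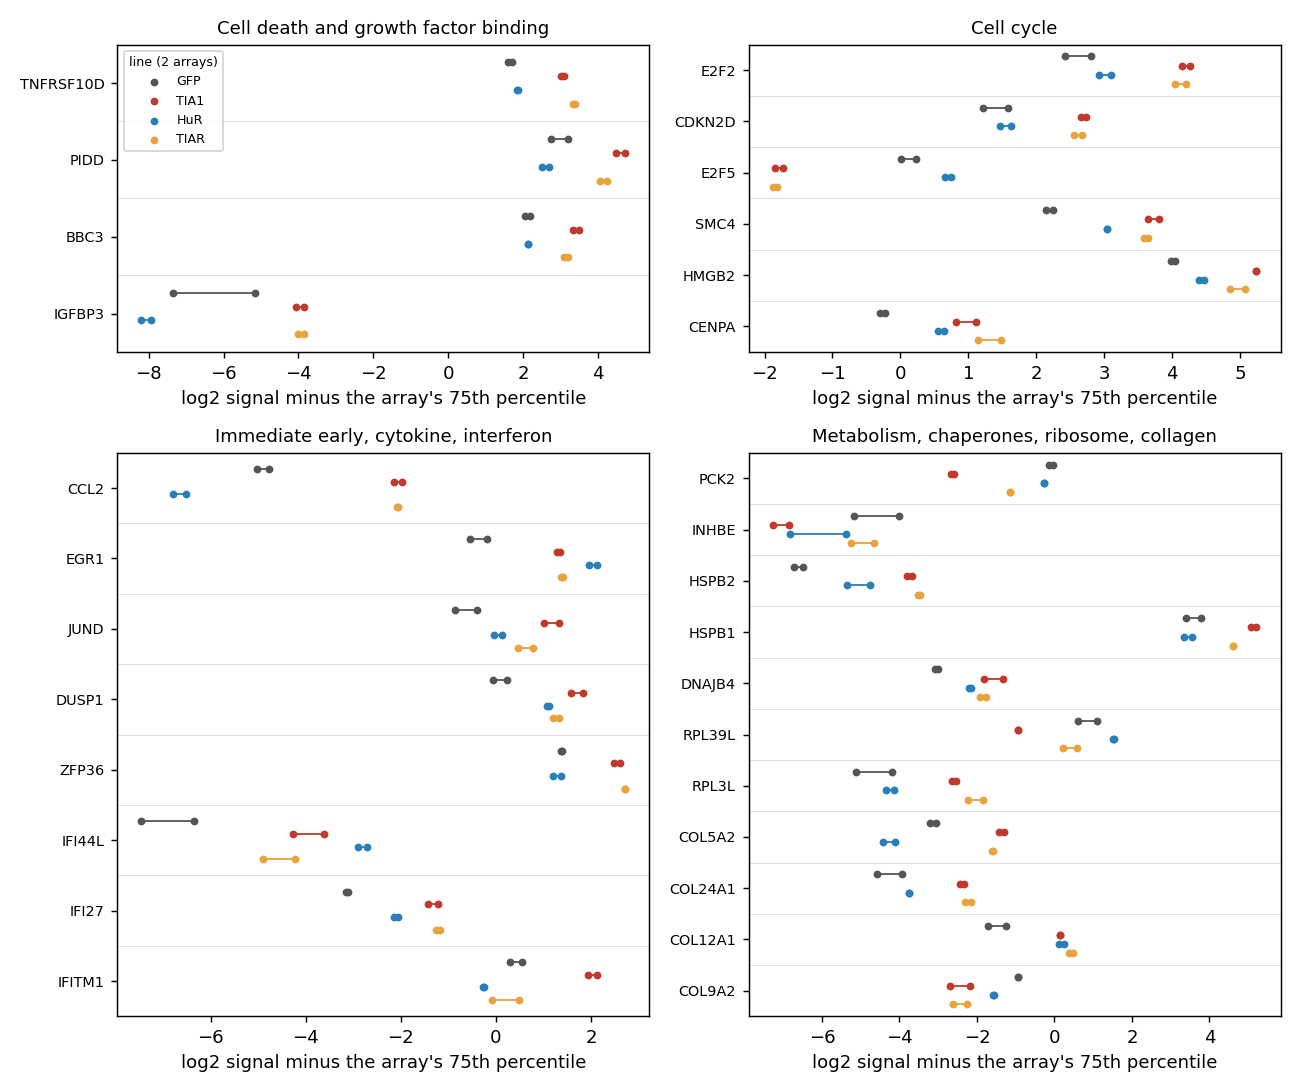
Level (log2 signal minus the 75th percentile of the array) on every array for members of the gene lists that held in the TIA1 line, up to 4 a list. Each point is 1 array and each line joins 2 replicates; for TNFRSF10D, PIDD, BBC3, E2F2, E2F5 and ZFP36 the TIAR arrays lie near the TIA1 arrays, whereas for IFITM1 and PCK2 the TIA1 arrays stand apart from all others.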

How the data were processed

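Total RNA of the 8 samples was labelled with Cy3 and hybridised to 8 Agilent SurePrint G3 Human 8x60K v2 arrays on 1 slide, so slide is no batch between lines. The deposited intensity values are the processed signals of Agilent Feature Extraction 10.7.3.1, background-subtracted per the file headers; the deposited table of log2 values, for which the authors' notes name limma, served as an alternative, and its exact scaling is not given in the sources used here. Control and outlier spots were left out, spots of a probe averaged, and log2 signals centred on the 75th percentile of each array. A gene has the values of its tested probe with the highest mean signal. Named genes are those of the expressed proteins and of the list followed by other assays, the 12 that held most in each direction, and up to 4 per list. TIA1 and GFP arrays were compared with limma 3.58.1 (R 4.3.3) and Benjamini-Hochberg adjustment over all probes tested, and the test was tried on simulated data. Of 29181 probes with a RefSeq accession, 28167 matched RefSeq symbols. Members and lists were chosen with earlier results of these data known. Precision is limited by there being only 2 arrays for each line. Some genes and 1 list, under which PIDD and IGFBP3 were named, are not reported here.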

Additional observations from a re-analysis of the deposited data

How the results depend on the processing

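Limma called 0 genes in each direction without the filter on dim probes, with the stricter filters, with quantile normalization or with cyclic loess. It called 1 higher (GSTP1) and 1 lower (CEBPE) after normexp, 1 lower (CEBPE) after normexp with quantile normalization and 1 lower (CEBPE) in the deposited values. With all 8 arrays in 1 fit it called 1033 higher and 835 lower, and with array weights, which gave each GFP array 0.18, 282 and 186. The methods' t-test at an unadjusted p under 0.05 gave 319 and 223, and rank product 632 and 510. Leaving out 1 array, limma called 0 to 1651 genes higher and 0 to 3142 lower; the genes that held numbered 790 to 1486 higher and 833 to 3012 lower, the highest counts without a GFP array; leaving out arrays for the genes that held was chosen after seeing the data. The genes that held higher numbered 415 after normexp and 414 after normexp with quantile normalization; those that held lower numbered 324 among probes above background on all 4 arrays, 219 after normexp, 345 with quantile normalization, 197 with both and 208 in the deposited values. Of the 645 and 608 genes, 331 to 556 and 124 to 393 also held in each of these 5 scalings. No named gene with a 2-fold difference changed sign under any of these scalings or without any array. For the genes that held, leaving out 1 array could not change the sign, so that part shows nothing about them. The labels link same-numbered samples by a number only. Their deviations had a correlation of -0.0727, which cannot show whether they were handled together, since GFP 1 stood apart. With the replicate number as a block limma called 0 and 0, with 3173 genes at an unadjusted p under 0.05 and a smallest adjusted p of 0.128. With 2 arrays a line and GFP 1 apart from GFP 2, dim genes are the least certain. The causes of these shifts were not tested.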

Other observations

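Over the chromosomes, the share of genes that held higher ran from 1.62% (chromosome 9) to 5.3% (chromosome 21), against 3.1% of all genes, and the share that held lower from 0.955% (chromosome 19) to 4.61% (chromosome 13), against 2.93%; these shares were not tested. On chromosome 19, 70 of 1361 genes (5.14%) held higher and 13 lower, with a median difference of 0.28 against GFP 1 and 0.20 against GFP 2, and on chromosome 7, 53 of 1097 (4.83%) held higher and 14 lower, with medians of 0.21 and 0.23. On chromosome 16, 23 of 925 held higher and 38 (4.11%) lower, with medians of -0.07 and -0.09. Among genes above background on all 4 arrays, the window from 55000001 to 60000000 of chromosome 16 (hg19) held 54 genes, 38 of them below both GFP arrays and 3 above, with medians of -0.45 and -0.61. The window from 80000001 to 85000000 of the same chromosome held 31 genes, 24 below both and 2 above. Other windows of it went the other way, such as that from 5000001 to 10000000, with 11 of 19 genes above both and 3 below. On chromosome 7, the window from 120000001 to 125000000 held 16 genes, 12 above both GFP arrays and 1 below, with medians of 0.86 and 0.55, and the window from 70000001 to 75000000 held 43, 27 above and 5 below, with medians of 0.62 and 0.46. These windows were picked for their values from all windows of 5000000 bases, so no test is given.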
